A study of Mus musculus with 11 samples.

Results

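The miR-106a-363 cluster is a row of 6 miRNA hairpins on the mouse X chromosome (miR-106a, miR-18b, miR-20b, miR-19b-2, miR-92a-2 and miR-363), and its miRNAs were compared here between embryonic stem (ES) cells with and without Trim71. The members were the arms listed for the hairpins miR-106a, miR-18b, miR-20b and miR-363 together with the arms listed under copy 2 of miR-19b and miR-92a, which gave 10 of the 592 miRNAs in the deposited table. For miR-19b-2 and miR-92a-2 this left the 5p arms, since miR-19b-3p and miR-92a-3p are also made with the same sequence by the miR-17-92 cluster. These shared arms cannot be assigned to either cluster and are described apart from the 10 members.

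Small RNA was sequenced from male C57BL/6 ES cells of clone 1 and clone E3, which carry a floxed Trim71 allele and a CreERT2 recombinase in the Rosa26 locus, and which had been kept in medium with FCS and LIF and sorted for SSEA-1. Trim-/- cells had received 4-hydroxytamoxifen (4-OHT), which activates the recombinase. Trimfl/fl cells are the conditional cells without the deletion, given the solvent according to the methods, so loss of Trim71 and exposure to 4-OHT cannot be told apart. Days 1, 5 and 6 have 1 library of each genotype from clone 1, and days 3 and 4 have 1 of each from clone E3, so that the comparison rests on 5 same-day pairs. A further Trimfl/fl library of day 2 has no partner, and its values equalled the mean of the other Trimfl/fl libraries within 0.1% in all 10 members before low values were raised, so it was not used. The labels do not say that the days are separate derivations, so that every p-value here measures the spread between these libraries, which may be technical. Trim71 itself is not in a table of miRNAs, and its deletion was not measured here.

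miRNAs are RNAs of about the same short length that guide Argonaute proteins to messenger RNAs, mostly through the bases called the seed, and lower their translation and stability. The miR-106a-363 cluster is one of several related clusters in mammals, of which miR-17-92 is the best known, and these clusters make miRNAs of the same seed families. Members of the miR-17 family are known to repress inhibitors of the cell cycle and pro-apoptotic genes, and their seed resembles that of the miRNAs from miR-290 to miR-295 that are abundant in mouse ES cells.

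On GRCm38 the 6 hairpins lie on the minus strand of chromosome X from 52741693 to 52742567, a stretch of 875 bases. In the direction of transcription the order is Mir106a (52742503 to 52742567), Mir18b (52742331 to 52742413), Mir20b (52742113 to 52742192), Mir19b-2 (52741983 to 52742066), Mir92-2 (52741838 to 52741928) and Mir363 (52741693 to 52741767). Each is annotated as a miRNA gene of a single exon. The first hairpin overlaps by a few bases the end of the non-coding transcript Kis2 on the same strand (52742563 to 52744960), and no annotated protein-coding gene overlaps the cluster.

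The mature sequences of the members with the highest values are given first, each beside the paralogue it is compared with, because some of them differ by so few bases that reads can be assigned to the wrong one. They come from RefSeq on GRCm38.p6, in which 9 of the 10 members had an entry, and miR-363-5p is named only. The capitals mark the seed, bases 2 to 8 from the 5′ end.
miR-106a-5p: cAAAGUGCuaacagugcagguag
miR-17-5p: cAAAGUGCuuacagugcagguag
miR-20b-5p: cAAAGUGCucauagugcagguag
miR-20a-5p: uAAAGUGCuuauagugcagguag
miR-18b-5p: uAAGGUGCaucuagugcuguuag
miR-18a-5p: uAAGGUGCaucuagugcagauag
miR-363-3p: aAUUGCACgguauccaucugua
miR-25-3p: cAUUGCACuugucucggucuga
miR-92a-3p: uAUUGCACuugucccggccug

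Counted from 1 at the 5′ end, miR-106a-5p differs from miR-17-5p at 1 position (A10U) and from miR-20b-5p at 2 (A10C and C12U). miR-20b-5p differs from miR-20a-5p at 2 positions (C1U and C10U), and miR-18b-5p from miR-18a-5p at 2 near the 3′ end (U18A and U20A). In each pair the seed is the same. The values of these 5p arms are therefore uncertain to the extent that reads were split between near-identical miRNAs, which the deposited table does not show.

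The minor arms of the hairpins miR-106a and miR-20b are given as well, because they had the largest fitted differences among the members and share a seed with each other and with miR-17-3p.
miR-106a-3p: aCUGCAGUgccagcacuucuuac
miR-20b-3p: aCUGCAGUgugagcacuucuag
miR-17-3p: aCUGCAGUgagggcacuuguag

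The deposited values are normalised read counts that had been corrected for batch, with values under 1 raised to 1. The number of reads behind a library is unknown, since the totals of the table (3751519 to 5551715 in Trim-/- and 2742673 to 4332525 in Trimfl/fl libraries) are sums of normalised values. For 591 of 592 miRNAs, adding the paired libraries gave one sum whatever the day, within 0.1%, once pairs with a value at 1 were set aside. Other paired values therefore mirror each other and count as 1 difference, and both genotypes have nearly equal SDs unless a value is at 1. The ES cell miRNAs miR-290 to miR-295 held 55.3% to 59.4% of the totals, and the fitted mean was lower in Trim-/- cells for 5 arms and higher for 13. The 9 arms of miR-302 and miR-367, also ES cell miRNAs, were all lower, with a median log2 difference of −0.64, and 0 passed the thresholds used below. Among 5 fibroblast miRNAs the fitted mean was higher in Trim-/- cells for 4 and lower for 1, and 0 passed the thresholds used below. Their sum ran from 275960 to 831678 in Trim-/- and from 13208 to 364466 in Trimfl/fl libraries, with miR-21a-5p as the largest value in every library but the Trimfl/fl library of day 5, where it was at 1. The 8 let-7 5p arms, taken as further markers of differentiated cells, all had a higher fitted mean in Trim-/- cells, with a median log2 difference of 2.48. Of these arms 6 had a value at 1 in some library. The genotypes did not overlap in 5, beside 5.24% of all miRNAs, and 1 arm passed the thresholds, beside 0.845%. The part of these differences in the results below was not tested.

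The summed value of the 10 members was lower in the Trim-/- library than in its Trimfl/fl partner on 4 of 5 days. It was 31508, 30152, 28667 and 30922 in Trim-/- libraries on days 1, 3, 5 and 6, against 47832, 49166, 50651 and 48396 in Trimfl/fl libraries. On day 4 it was 47626 in Trim-/- and 31693 in Trimfl/fl cells, so that this pair had the opposite order. As a share of a library's total the members held 0.516% to 1.27% in Trim-/- and 0.732% to 1.85% in Trimfl/fl libraries. Fewer cells with a given miRNA and less of it per cell cannot be told apart in such bulk libraries. Most of the sum came from 3 arms, with medians over the 10 libraries of 49.2% for miR-20b-5p, 21.7% for miR-106a-5p and 20.4% for miR-363-3p, followed by miR-18b-5p with 5.12% and miR-363-5p with 2.85%. Each of the other 5 arms held less than 1% of the sum in every library.

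**Figure D1:**
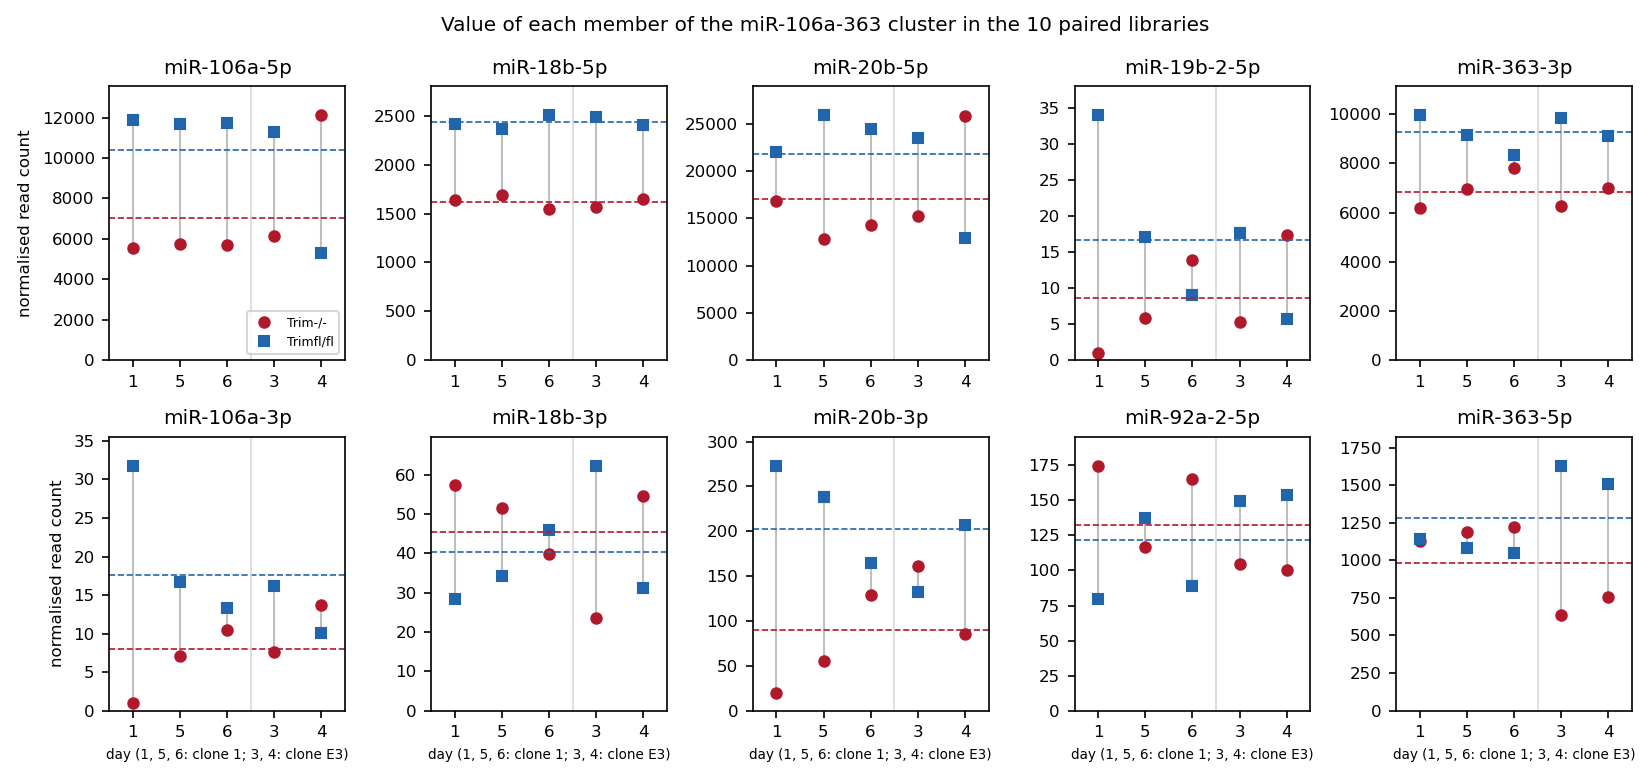
Normalised read count (vertical axes, linear, from 0) of each of the 10 members in the 10 paired libraries, by day (horizontal axes), with Trim-/- as red circles, Trimfl/fl as blue squares, a grey line joining each pair and dashed lines at the means. miR-18b-5p and miR-363-3p keep the red points below the blue ones on all 5 days, while miR-106a-5p and miR-20b-5p change places on day 4.

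Differences were fitted with limma over all 592 miRNAs on log2(value + 1), with terms for genotype and day, and are given as Trim-/- minus Trimfl/fl. Because 1 is added, the fold of a low value is understated. By this fit 8 of the 10 members were lower in Trim-/- cells, beside 289 (48.8%) of all miRNAs, and the median difference was −0.51 for the members and 0.03 for all miRNAs. For miR-106a-3p and miR-19b-2-5p the Trimfl/fl mean alone reached the 10 that the authors asked for, so that a lower Trim-/- value was favoured by that filter and these 2 lend the count no support. Among the 8 members that reached 10 in both genotypes, 6 were lower and 2 higher, with a median of −0.42. The study asked for a change of more than 1.5-fold at p under 0.05 without adjustment. These thresholds were passed by 1 member in the lower direction and by 0 in the higher direction, beside 4.56% and 0.845% of all miRNAs (5.41% in either direction). At an adjusted p under 0.05, limma called 0 members and 0.0% of all miRNAs, and 1 member had an unadjusted p under 0.05, beside 5.41%. An ordinary linear model per miRNA and a model on untransformed values also called 0 members after adjustment. The thresholds themselves were passed in the lower direction by 1 member in the ordinary model, in limma with a trend and on untransformed values (2.87%, 4.22% and 4.56% of all miRNAs). They were passed by 3 without the replicate block (9.97%) and by 2 with libraries divided by their totals (8.11%). Of these 3, miR-106a-3p had a direction favoured by the filter and lends the count no support. The values of the genotypes did not overlap in 2 members, both lower in Trim-/- cells, beside 6.25% of all miRNAs, and 0 were higher without overlap, beside 5.24%. These are also the members lower on all 5 days (6.25% of all miRNAs), and 0 were higher on all 5 days (5.24%). With constant same-day sums, no overlap and the same order on all 5 days are a single criterion, so the second count adds nothing. With 10 members a share of 1 or 2 is too coarse to set against these backgrounds.

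miR-18b-5p, the miR-18 family member of the cluster, was the member that passed the thresholds. Its normalised read counts on days 1, 3, 4, 5 and 6 were 1638, 1564, 1651, 1687 and 1551 in Trim-/- libraries. In the Trimfl/fl libraries of the same days they were 2419, 2493, 2405, 2369 and 2506. The highest Trim-/- value lay well below the lowest Trimfl/fl value, and day 4 did not differ from the other days. The means were 1618 ± 58.7 (SD, n = 5) and 2438 ± 58.7 (SD, n = 5). The fitted difference was −0.59 (SE 0.22), a fold of 1.51 that lies just past the threshold of 1.5, with an adjusted p of 0.607 by limma (unadjusted 0.0369). The exact permutation of genotypes within days gave p = 0.063 (two-sided), the smallest value that 5 pairs allow.

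The 5 same-day differences of miR-18b-5p were −0.56, −0.67, −0.54, −0.49 and −0.69, and their SD of 0.087 was the smallest of the 592 miRNAs, whose median SD was 0.929. limma draws such a spread towards that of the other miRNAs, and the choice of spread sets where miR-18b-5p stands. Among all miRNAs ordered by p it was number 26 in limma, number 16 in limma with a trend on the mean, and number 1 in an ordinary linear model per miRNA and in a model on untransformed values. The adjusted p was 0.0649 in the ordinary linear model and 0.0580 on untransformed values. With the day block, leaving out the pair of day 1, 3 or 6 took the limma p to 0.0907, 0.106 and 0.0924, with differences of −0.60, −0.57 and −0.57. In clone 1 or clone E3 alone p was 0.120 or 0.364 by limma, and with median-of-ratios size factors the difference of −0.58 fell short of the fold threshold. Without the replicate block miR-18b-5p passed the adjusted threshold by limma (adjusted p = 0.0395, beside 1.52% of all miRNAs), also with all 11 libraries (0.00678, beside 6.08%). These fits treat libraries that mirror each other as independent, and the day 2 library as a further one.

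**Figure D2:**
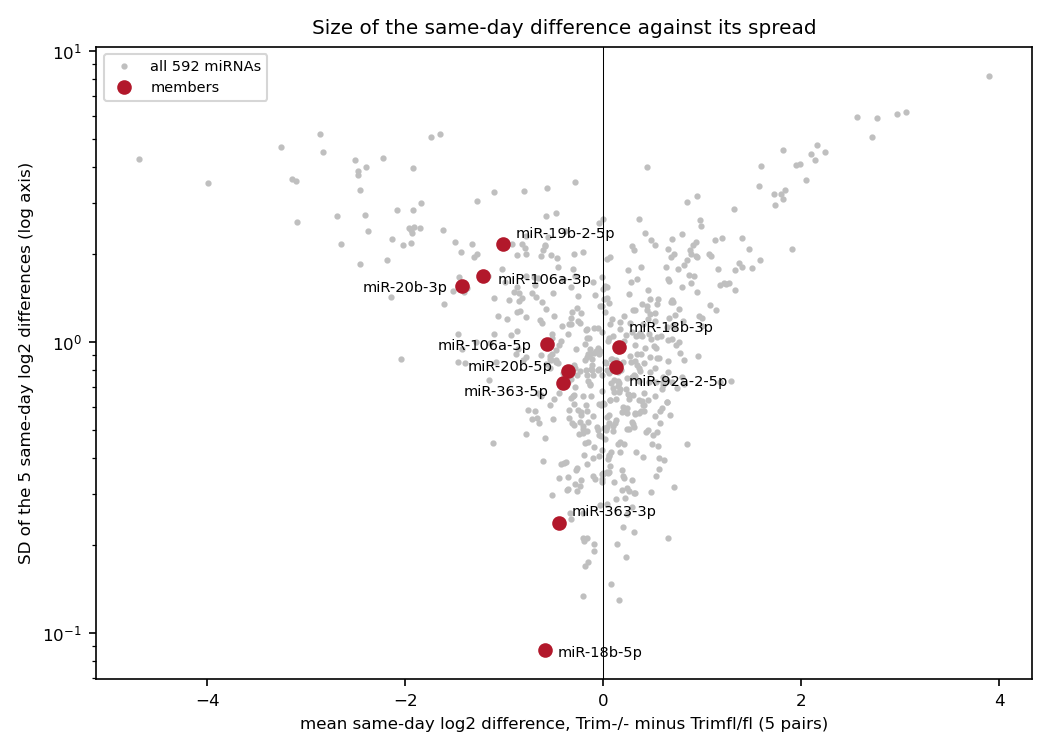
Mean same-day log2 difference (horizontal axis, Trim-/- minus Trimfl/fl) against the SD of the 5 same-day log2 differences (vertical axis, log scale) for all 592 miRNAs in grey and the 10 members in red. miR-18b-5p lies lowest, at −0.59 with an SD of 0.087, and miR-20b-3p, miR-106a-3p and miR-19b-2-5p combine the largest differences of the members with SDs over 1.5.

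miR-363-3p, the member with the miR-92 family seed AUUGCAC and the main arm of the last hairpin, was also lower in every pair. It stood at 6167, 6286, 6988, 6958 and 7797 in Trim-/- libraries on days 1, 3, 4, 5 and 6. The matching Trimfl/fl values were 9958, 9840, 9138, 9168 and 8329. The genotypes did not overlap, but on day 6 the values of the pair lay close together. The means were 6839 ± 654 and 9286 ± 654 (SD, n = 5). The fitted difference of −0.44 (SE 0.24), a fold of 1.36, did not pass the thresholds (adjusted p = 0.620 by limma, unadjusted 0.109, and exact permutation p = 0.063). With libraries divided by their totals it was −0.71 (unadjusted limma p of 0.0682), past the fold threshold but not the p threshold. That scaling also moved the median of all miRNAs from 0.03 to −0.24, so the move past the fold threshold is not particular to miR-363-3p. In the ordinary linear model its p was 0.0143, number 7 of 592, and the adjusted p 0.656. Without the replicate block the adjusted p by limma was 0.102, and with all 11 libraries it was 0.0378, in a fit that called 6.08% of all miRNAs. Both fits treat mirrored libraries as independent. The day 2 library added in the second equals the mean of the other Trimfl/fl libraries, so the lower p rests on no further data.

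The passenger arm of this hairpin, miR-363-5p, had unlike values in the clones, though the difference between them did not pass the test. In clone 1 its values were 1127, 1187 and 1221 in Trim-/- and 1140, 1080 and 1046 in Trimfl/fl libraries on days 1, 5 and 6. In clone E3 they were 638 and 755 in Trim-/- against 1629 and 1512 in Trimfl/fl libraries on days 3 and 4. The pairs of clone 1 thus lay near each other and those of clone E3 did not. The fitted difference was 0.11 in clone 1 and −1.18 in clone E3, and the test of the difference between clones gave −1.29 (SE 0.52, adjusted p = 0.627 by limma, unadjusted 0.0520). Over both clones the difference was −0.40 (SE 0.34, adjusted p = 0.666 by limma), and it was −0.16 without day 3 and −0.25 without day 4.

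miR-106a-5p and miR-20b-5p carry the miR-17 family seed AAAGUGC and are the main arms of their hairpins. For miR-106a-5p the Trim-/- values were 5536, 6132, 5738 and 5703 on days 1, 3, 5 and 6, against 11889, 11293, 11687 and 11722 in Trimfl/fl libraries. On day 4 the values were 12106 in Trim-/- and 5319 in Trimfl/fl cells. The 5 values of each genotype therefore split into 4 that lie together and 1 at the level of the other genotype. The means were 7043 ± 2839 and 10382 ± 2839 (SD, n = 5), and the difference of −0.57 (SE 0.42) did not pass the thresholds (adjusted p = 0.645 by limma, unadjusted 0.222; exact permutation p = 0.375). Without the day 4 pair the difference was −1.01 with an unadjusted limma p of 0.0062, which passes the thresholds.

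For miR-20b-5p the Trim-/- values were 16785, 15231, 12861 and 14293 on days 1, 3, 5 and 6, and the Trimfl/fl values 21980, 23534, 25904 and 24472. On day 4 they were 25855 in Trim-/- and 12911 in Trimfl/fl cells. The order of the genotypes turned on the same day as for miR-106a-5p. The difference over 5 pairs was −0.36 (SE 0.36, adjusted p = 0.680 by limma), and without day 4 it was −0.70 with an unadjusted limma p of 0.0338. It was −0.20 without day 5 and −0.63 with libraries divided by their totals, and passed the thresholds in neither. Without day 4 the thresholds were passed in the lower direction by 3 members, miR-18b-5p, miR-106a-5p and miR-20b-5p, beside 7.43% of all miRNAs, and 0 members reached an adjusted p under 0.05.

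The order on day 4 was shared by the relatives with the same seed in the other clusters. The table holds 6 5p arms with the seed AAAGUGC, namely miR-106a-5p, miR-20b-5p, miR-17-5p, miR-20a-5p, miR-93-5p and miR-106b-5p. On day 4 all 6 were higher in Trim-/- cells, with a median difference of 1.17. On days 3, 5 and 6 all 6 were lower, and on day 1 it was 5 of 6, with miR-20a-5p as the exception. Among all miRNAs, 298 were higher and 294 lower on day 4, and the members divided into 5 and 5. The day 4 order was not particular to this seed, since 6 of 6 miR-106b-25 arms and 8 of 10 miR-17-92 arms were higher whatever their seed. This pattern was noticed in the data and was not tested. Day 3, the other pair of clone E3, had the order of the clone 1 pairs for these 6 arms, apart from miR-20a-5p on day 1. With that exception the day 4 pair differed in order from day 3 and from the clone 1 pairs.

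**Figure D3:**
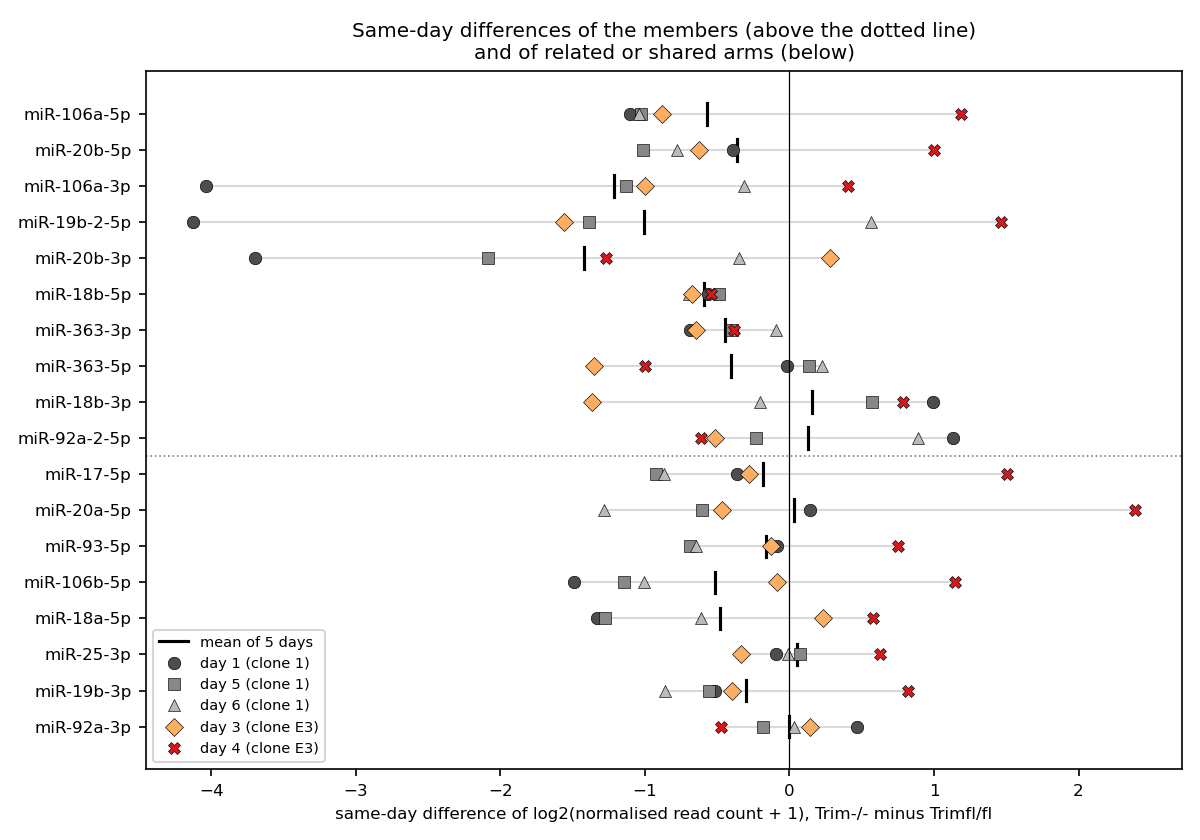
Same-day difference of log2(normalised read count + 1), Trim-/- minus Trimfl/fl (horizontal axis), for each member above the dotted line and for 8 related or shared arms below it, with 1 symbol per day and a black bar at the mean of 5 days. On day 4 (red crosses) the AAAGUGC arms, from miR-93-5p at 0.75 to miR-20a-5p at 2.39, lie to the right of 0, whereas miR-18b-5p and miR-363-3p stay to its left.

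Clone 1 and clone E3 were compared for all members with a genotype-by-clone term. In clone 1 miR-106a-5p differed by −1.06 and miR-20b-5p by −0.72, and in clone E3, where the pairs of days 3 and 4 have opposite signs, by 0.15 and 0.19. miR-18b-5p differed by −0.58 in clone 1 and −0.61 in clone E3, and miR-363-3p by −0.39 and −0.52. The difference between clones was therefore small for these 2 arms, at −0.03 (SE 0.51) and −0.12 (SE 0.53). By limma, 0 of 10 members had an unadjusted p under 0.05 for this term, beside 5.57% of all miRNAs, and 0 an adjusted p under 0.05, beside 0.169%. In clone 1 alone miR-106a-5p passed the thresholds (adjusted p = 0.447 by limma, unadjusted 0.0239), beside 7.6% of all miRNAs called lower there, and in clone E3 alone 0 members did, beside 4.73%.

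The minor arms were present at low values. miR-20b-3p had 20.1, 161, 85.5, 55.3 and 129 in Trim-/- libraries on days 1, 3, 4, 5 and 6, and 273, 132, 207, 238 and 164 in Trimfl/fl libraries. It was lower on 4 of 5 days, including day 4, on which its main arm was higher. The fitted difference of −1.42 (SE 0.61) was the largest of the members and missed the threshold (adjusted p = 0.607 by limma, unadjusted 0.0569; exact permutation p = 0.125). Leaving out day 1 took it to −0.86, and the fit without the replicate block gave an unadjusted p of 0.0203. It passed the thresholds without day 3 (−1.85, unadjusted limma p of 0.0307), with libraries divided by their totals (−1.69, 0.0395), with a pseudocount of 10 (−1.28, 0.0444) and among miRNAs without a floored value (0.0362).

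miR-106a-3p lay between 1.0 and 13.7 in Trim-/- and between 10.1 and 31.8 in Trimfl/fl libraries, and its difference was −1.21 (SE 0.65, adjusted p = 0.620 by limma, unadjusted 0.112, and 0.0434 without the replicate block). miR-19b-2-5p lay between 1.0 and 17.3 and between 5.63 and 33.9, with a difference of −1.01 (SE 0.82, adjusted p = 0.645). As both are listed through their Trimfl/fl mean alone, their direction is not independent of the filter. In both arms the Trim-/- value of day 1 is the floor of 1. The constant same-day sum places these values at −8.04 and −11.0 before the floor, so that the log2 differences of day 1, −4.03 and −4.13, depend on the floor. Without day 1 the fitted differences were −0.51 and −0.23, and with a pseudocount of 10 they were −0.62 and −0.50. miR-18b-3p (23.5 to 57.4 in Trim-/- and 28.3 to 62.2 in Trimfl/fl libraries) and miR-92a-2-5p (100.1 to 175 and 79.3 to 154) overlapped between genotypes, with differences of 0.16 (SE 0.41) and 0.13 (SE 0.37). The sign of both changed when a single day was left out and when the libraries were scaled to their totals.

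The arms of a hairpin are cut from the same precursor, and the share of its 5p arm compares values within a library, although the batch correction and the floor still enter it. The day 1 Trim-/- share of miR-106a rests on a 3p value at the floor. As miR-106a-3p is listed through its Trimfl/fl mean alone, a higher 5p share in Trim-/- cells was favoured by the filter. The test of this hairpin therefore decides nothing. miR-106a had 99.9% ± 0.0594 of its value in the 5p arm in Trim-/- and 99.8% ± 0.0600 in Trimfl/fl cells (SD, n = 5), and miR-20b 99.4% ± 0.391 and 99.0% ± 0.419. miR-18b had 97.3% ± 0.759 and 98.4% ± 0.515, lower in Trim-/- cells on 4 of 5 days. miR-363 was the hairpin led by its 3p arm, with 12.5% ± 2.85 and 12.1% ± 1.97 in the 5p arm. The differences were 0.0586, 0.426, −1.08 and 0.436 percentage points for miR-106a, miR-20b, miR-18b and miR-363. Exact permutation within days (two-sided) gave p = 0.3125, 0.375, 0.1875 and 0.875 in the same order, and 0.5, 0.5, 0.5 and 0.875 after adjustment over the 4 hairpins. In each hairpin the 5 days included differences of both signs. Leaving out 1 pair gave 0.0111 (without day 1) to 0.0907 (without day 6) for miR-106a, 0.219 (without day 4) to 0.654 (without day 3) for miR-20b and −0.798 (without day 1) to −1.59 (without day 3) for miR-18b. For miR-363 the sign turned without day 1 (−0.751), day 5 (−0.465) or day 6 (−0.0510). Without day 3 or day 4 it was 1.79 or 1.65.

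Paralogues in the miR-17-92 and miR-106b-25 clusters were compared with the members within a library in the same way. The ratio of miR-106a-5p to miR-17-5p was lower in Trim-/- cells on 5 of 5 days, with a mean log2 difference of −0.39 ± 0.27 (SD, n = 5). This includes day 4, with −0.32, on which both arms were higher in Trim-/- cells. The ratio of miR-363-3p to miR-25-3p was also lower on 5 of 5 days, by −0.50 ± 0.35 (SD, n = 5). For both ratios the exact permutation p was 0.063, the smallest possible, and 0.1875 after adjustment over the 6 ratios examined, so that neither passed. The ratio of miR-20b-5p to miR-20a-5p was lower on 4 of 5 days (−0.39 ± 0.69, exact permutation p = 0.25, adjusted 0.5), and its mean was −0.15 without day 4 and −0.62 without day 6.

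miR-18b-5p did not separate from its paralogue miR-18a-5p, since the ratio differed by −0.11 ± 0.90 with values from −1.12 to 0.79 (exact permutation p = 0.6875). The sign of this difference turned without day 3 (0.088) or day 4 (0.14). miR-18a-5p itself had 768, 1459, 1618, 789 and 1067 in Trim-/- and 1931, 1241, 1081, 1911 and 1633 in Trimfl/fl libraries on days 1, 3, 4, 5 and 6. It was lower on the clone 1 days and higher on the clone E3 days, whereas miR-18b-5p was lower on all of them. The low copies gave ratios of −0.10 ± 1.58 for miR-19b-2-5p to miR-19b-1-5p and 0.91 ± 2.15 for miR-92a-2-5p to miR-92a-1-5p (exact permutation p = 0.8125 and 0.5). The latter was 0.092 without day 4 and 1.56 without day 3. miR-19b-2-5p is listed through its Trimfl/fl mean alone, and its day 1 Trim-/- value is the floor, so the test of its ratio decides nothing. That ratio differed by 0.22 with a pseudocount of 10. The spread of these last ratios is too wide to show a difference of the size seen for miR-106a-5p.

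**Figure D4:**
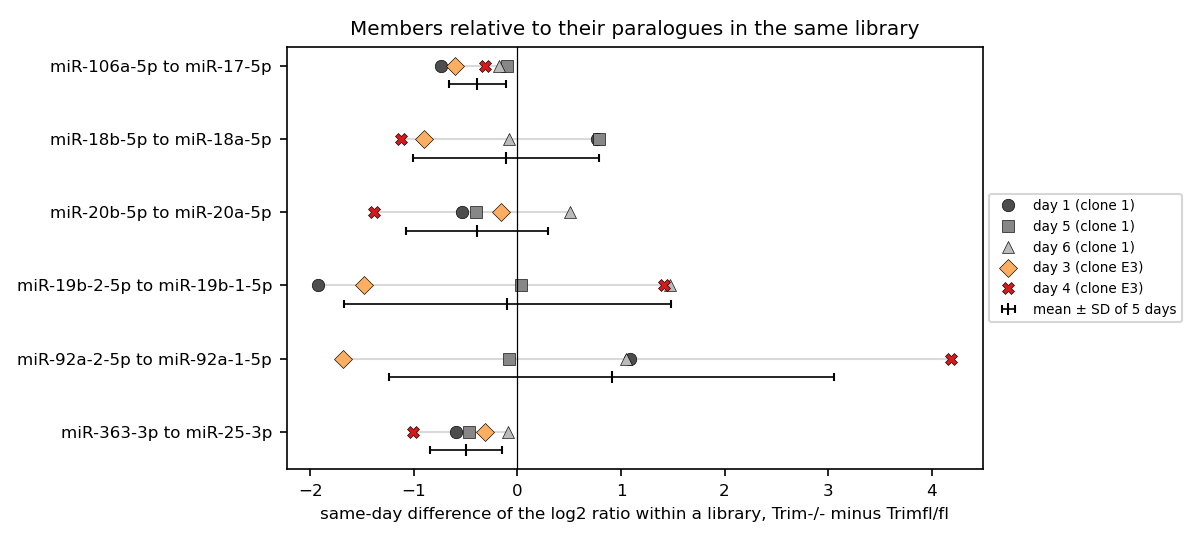
Same-day difference of the log2 ratio of a member to its paralogue in the same library (horizontal axis, Trim-/- minus Trimfl/fl), with 1 symbol per day and the mean ± SD of 5 days below each row of symbols. For miR-106a-5p to miR-17-5p and miR-363-3p to miR-25-3p all 5 symbols lie to the left of 0, and the other 4 ratios have symbols on both sides.

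The related clusters as a whole are described by counts. Of the 10 arms listed for miR-17-92 on chromosome 14, 7 were lower and 3 higher in Trim-/- cells, with a median of −0.30. Of the 6 arms of miR-106b-25 on chromosome 5, 4 were lower and 2 higher, with a median of −0.09. In both, 0 arms passed the thresholds and 0 were lower on all 5 days. On day 4 the miR-106b-25 arms were higher in 6 of 6 and the miR-17-92 arms in 8 of 10. Without day 4 the medians were −0.65 for the miR-106a-363 members, −0.58 for miR-17-92, −0.30 for miR-106b-25 and 0.00 for all miRNAs. The member median includes miR-106a-3p and miR-19b-2-5p (−1.62 and −1.63 without day 4), whose lower direction the filter favoured. It is therefore not ranked against the other clusters.

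Of the shared arms, miR-92a-3p had the highest mean value of all arms of the 3 clusters in the table, with means of 57230 ± 6954 in Trim-/- and 57332 ± 6954 in Trimfl/fl libraries (SD, n = 5), a difference of −0.00 (SE 0.25). miR-19b-3p had 3938 ± 966 and 4848 ± 966, a difference of −0.30 (SE 0.32, adjusted p = 0.706 by limma), which was −0.58 without day 4 and −0.16 without day 6. Like miR-106a-5p and miR-20b-5p it was lower on days 1, 3, 5 and 6 and higher on day 4, at 5608 in Trim-/- and 3178 in Trimfl/fl cells. miR-367-3p, a miRNA of the miR-302 cluster that shares the seed of miR-363-3p, had means of 62.8 ± 25.6 and 77.0 ± 25.6 and a difference of −0.33 (SE 0.47, adjusted p = 0.758 by limma). Of the 6 arms of the table with this seed (miR-363-3p, miR-367-3p, miR-25-3p, miR-32-5p, miR-92a-3p and miR-92b-3p) 4 were lower and 2 higher, with a median of −0.01.

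On the X chromosome, 9 other miRNAs of the table lie within 2 Mb of the cluster, all in the group of miR-322, miR-503, miR-351, miR-542 and miR-450 hairpins, the nearest 305441 bases away. Of these 3 were lower and 6 higher in Trim-/- cells, the median was 0.13, and 0 passed the thresholds. miR-450a-5p was the one of them that was higher on all 5 days, with means of 475 and 323 and a difference of 0.56 (SE 0.26, adjusted p = 0.607 by limma). The members and these neighbours thus had medians of opposite sign, which was not tested.

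Finally, the same-day profile of the members, the median of their differences on each day (−0.63, −0.78, 0.01, −0.75 and −0.26 on days 1, 3, 4, 5 and 6), was compared with that of the other miRNAs by root mean square distance over the 5 days. These medians include miR-106a-3p and miR-19b-2-5p, whose direction the filter favoured. Their day 1 differences (−4.03 and −4.13) also depend on the floor, so the distances are descriptive only. Of 564 miRNAs outside the 3 clusters, whose median distance was 1.18, the nearest were miR-466f-5p (0.232), miR-878-3p (0.256), miR-669a-3p (0.257), miR-669o-3p (0.267) and miR-302d-3p (0.276). Their fitted differences were −0.37, −0.59, −0.44, −0.42 and −0.66, and none of the 5 had an unadjusted limma p under 0.05. miR-302d-3p belongs to the miR-302 cluster of pluripotent cells.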

How the data were processed

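Small RNA of 11 libraries (5 Trim-/-, 6 Trimfl/fl) was analysed from the deposited table. According to the methods, the authors trimmed the reads, aligned them with Bowtie2 (version 2.2.1 per the labels) to the mouse genome with miRBase annotation, counted them per miRNA in Partek 6.6, normalised them with DESeq2, corrected for batch, raised values under 1 to 1 and kept miRNAs whose larger group mean reached 10; the deposited values are therefore a signal on the scale of normalised read counts, without raw counts or read depth. All 10 members passed that filter (lowest larger mean 16.6), miR-106a-3p and miR-19b-2-5p through Trimfl/fl alone. The 9677 rows without a miRNA name were left out.

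Values were compared on log2(value + 1) with limma 3.58.1 in R 4.3.3 (genotype and day, 10 libraries of 5 pairs, adjusted by the Benjamini-Hochberg method over 592 miRNAs), by exact permutation within days (32 sign patterns, smallest two-sided p 0.063), and as arm shares and paralogue ratios. The labels give the pairing, since a day number joins 1 library of each genotype of the same clone; the equal same-day sums fix how paired values deviate, so that no correlation could check it. Named miRNAs were all members, the shared arms, the paralogues of 2 clusters, miR-367-3p, the 5 nearest profiles and the X-linked neighbours. Members, lists and tests were chosen with earlier results of these data known. The fit was tested on simulated data. Alternatives were fits without the replicate block, with clone in place of day, with all libraries, without each pair, by clone, under 3 scalings, 2 pseudocounts, a filter at a mean of 100 against none, other variance models, untransformed values and miRNAs without floored values. Tables and plots were made with Python 3.11.15, pandas 2.3.3, numpy 2.4.6, scipy 1.17.1 and matplotlib 3.10.9. Sequences and positions came from RefSeq tables and annotation of GRCm38.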

Additional observations from a re-analysis of the deposited data

Results flagged for a closer look

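Of 32 groups of 5 values examined with Dixon's criterion at 95% (critical value 0.71), 4 had a value that stood apart, and chance gives about 1 such group in 20. All 4 came from day 4. miR-106a-5p stood apart at 12106 in the Trim-/- library and at 5319 in the Trimfl/fl library, with gaps of 0.909 of the range in both. miR-19b-3p, an arm shared with the miR-17-92 cluster, stood apart at 5608 in the Trim-/- library and at 3178 in the Trimfl/fl library, with gaps of 0.731 of the range. Because the libraries of a day add up to a constant sum, each pair of values is a single departure seen from both sides. The cause was not tested.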

How the results depend on the processing

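The median difference of the 10 members kept its sign in every alternative, from −0.78 with libraries divided by their totals, which moved the median of all miRNAs from 0.03 to −0.24, to −0.39 in clone E3 alone. This median includes miR-106a-3p and miR-19b-2-5p, whose lower direction the filter favoured, so its constant sign lends no support. Over the 8 members that reached 10 in both genotypes the reported fit gave −0.42, and the alternatives were not summarised for these 8. The number of members past the thresholds in the lower direction, 1 as reported, was 3 without the replicate block and with all 11 libraries, 2 with clone in place of day, with division by the totals (also without miR-290 to miR-295), with a pseudocount of 10 and among miRNAs without a floored value (miR-20b-3p joining miR-18b-5p in each), and 0 in clone E3 alone and with median-of-ratios size factors, where the difference of miR-18b-5p was −0.58; without 1 pair it ran from 0 to 3. The share of all miRNAs tested that passed in the same direction was 4.56% as reported. It was 9.97% and 12% in the first 2 of these fits, 9.63%, 8.11%, 7.26%, 5.24% and 4.32% in the next 5, and 4.73% and 4.39% in the last 2. Without 1 pair it ran from 1.86% (day 1) to 7.43% (day 4). The 3 members of the first 2 fits were miR-18b-5p, miR-20b-3p and miR-106a-3p. As miR-106a-3p is listed through its Trimfl/fl mean alone, it lends these counts no support. At an adjusted p under 0.05 there was 1 member without the replicate block (miR-18b-5p, beside 1.52% of all miRNAs), in place of 0. With all 11 libraries there were 2 (miR-18b-5p and miR-363-3p, beside 6.08%). At an unadjusted p under 0.05 there were 4 in both fits (beside 22.8% and 27.9% of all miRNAs), in place of 1 (5.41%). Both fits treat libraries that mirror each other as independent, and the second counts the day 2 library as a further one. The members with the smallest exact permutation p numbered 2 to 5 without 1 pair. Fewer pairs make the same sign on every day easier to reach. The share of all miRNAs was not counted in these sets, so the numbers are not read as a result. The arm share difference of miR-363 ran from −0.75 to 1.79 percentage points without 1 pair, and the log2 ratio differences from −0.34 to 0.14 for miR-18b-5p to miR-18a-5p and from −0.49 to 0.36 for miR-19b-2-5p to miR-19b-1-5p, the last at 0.22 with a pseudocount of 10.

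Signs of single miRNAs turned as follows. miR-18b-3p ran from −0.054 to 0.54 without 1 pair, and was −0.00 without day 4, −0.29 in clone E3, −0.11 with division by the totals and −0.091 without miR-290 to miR-295 in them. miR-92a-2-5p ran from −0.12 to 0.32 without 1 pair, and was −0.57 in clone E3, −0.14 by the totals and −0.12 without miR-290 to miR-295. miR-92a-3p was 0.11 and 0.04 without day 4 or day 5, 0.11 in clone 1 and 0.0090 with median-of-ratios size factors. In clone 1 alone miR-363-5p was 0.11; in clone E3 alone miR-106a-5p was 0.15, miR-20b-5p 0.19 and miR-19b-3p 0.21. Of 247 alternative values of single miRNAs, 210 kept direction and side of the thresholds. No filter gave the reported values, and a filter at a mean of 100 left out 3 members and gave a member median of −0.44. The fit on values before the floor was added after seeing the data. The causes were not tested.

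The precision rests on 5 pairs, depth is unknown, and the batch correction by the authors makes paired libraries mirror each other. How reads were divided between near-identical miRNAs is not shown in the table, and values at 1 have no order among themselves.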
